A study of Camellia sinensis with 9 samples.

Results

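Leaves of the green-revertible albino tea cultivar ‘Anji Baicha’ (Camellia sinensis) were compared between the green (G) stage and the yellow-green (YG) stage, the end and the start of the spring colour change. The comparison covered the 69101 of 179951 assembled unigenes that had an FPKM (mapped fragments scaled to unigene length and to library size) of at least 1 in G or in YG. It rested on 6 of the 9 RNA-seq libraries of the study, 3 from G leaves, which had turned green again in late spring, and 3 from YG leaves, the light green first leaves of newly germinated shoots. The other 3 libraries came from the white (W) stage in between, when leaves had lost most of their green colour outside the veins. All leaves came from 4-year-old plants of this cultivar in 1 field collection, and no treatment was applied. The leaves of the stages were taken from different positions on the shoot and on different dates, and temperatures were higher by the G stage, so that stage, leaf position, date and temperature cannot be told apart.

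The deposited values hold 1 FPKM per unigene and stage, with the 3 libraries of the stage already combined. No spread between plants could be computed and no p-value is given, so the words higher and lower describe the size of a difference between 2 pooled values and not a tested change. The number of fragments behind each value is unknown. Whole leaves were sampled, so that fewer cells of a type and less RNA per cell cannot be told apart. Changes are differences of log2(FPKM + 1), G minus YG, a scale that understates the change of weakly expressed unigenes, and a 2-fold difference means 1 on this scale. Where 3 values are said to be in stage order they are those of YG, W and G. The W value splits each net change exactly into a YG to W step and a W to G step. A change is called early where the first step held at least 66.7% of it, late where the second step did, and shared where both steps ran in the net direction and neither reached that share. It is called reversing where 1 step went against the net change by more than 33.3% of it.

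Greening of a leaf needs chlorophyll, which is built from glutamate through the tetrapyrrole pathway and then the magnesium branch, and carotenoids, which are built in the plastid from isoprenoid precursors and protect the photosynthetic apparatus. Theanine, the amino acid that gives tea its umami taste, is made from glutamate and ethylamine and so shares a precursor with chlorophyll. Gene names were known only for the unigenes of these 3 pathways, 155 in all, of which 119 entered the comparison. Markers of other cell types could not be looked up, and the leaf label was not checked against other markers. The chlorophyll enzymes looked up beside the green label of the G stage did not share a common direction. CHLH unigene24228 had an FPKM of 209 in G and 49.2 in YG. The unigenes of CRD (277 in G and 83.1 in YG) and of CAO (17.0 and 2.57) were also higher in G as a sum. CHLI (45.3 and 42.9) and CHLM (25.4 and 25.5) were nearly level. Only the PORA unigenes were lower, with a sum of 31.9 in G and 128 in YG.

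Between G and YG, 23100 of the 69101 unigenes (33.4%) were at least 2-fold apart, 11902 of them higher in G (17.2%) and 11198 lower in G (16.2%). The median size of the change was 0.64 on the log2 scale and the median of the signed change was 0.0041. Larger changes leaned towards G. At least 4-fold, 2349 unigenes were higher and 1729 lower in G, and at least 8-fold the counts were 548 and 326. At least 32-fold, 44 were higher and 20 lower, so that the higher ones made up 68.8% of that group, against 51.5% at 2-fold.

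**Figure D1:**
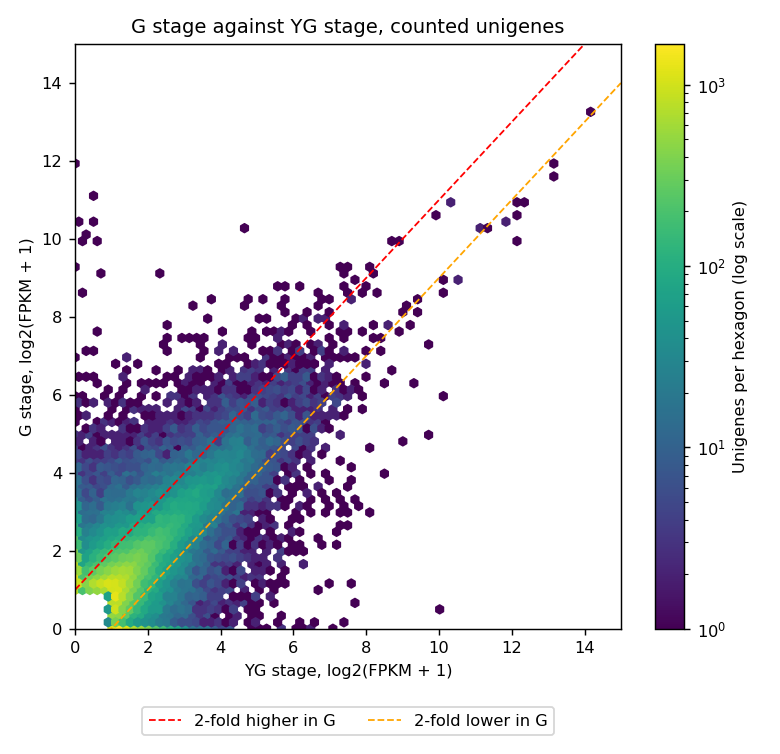
FPKM of the 69101 unigenes in the G stage (vertical axis) against the YG stage (horizontal axis), both as log2(FPKM + 1), with the number of unigenes in each hexagon given by colour on a log scale and dashed lines at a 2-fold difference. Most unigenes lie between the lines, and 11902 lie on or above the upper line and 11198 on or below the lower one, many of them on the axes where 1 stage is listed at 0.

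Unigenes listed at 0 in 1 stage made up about as many of these differences as unigenes with a value in both. Of the 11902 higher in G, 5642 were listed at 0 in YG, and of the 11198 lower in G, 6199 were listed at 0 in G. A listed 0 can be a failed estimate. Among unigenes above 0 in all 3 stages, 6053 were higher in G by 2-fold or more and 4810 lower, and the higher ones were 55.7% of these. The lean towards G also depended on the level of expression. Where the higher of the 2 values lay between FPKM 1 and 2, 12.4% of the unigenes were higher in G and 14.6% lower, and between 10 and 50 these shares were 26.9% and 16.5%. From FPKM 100 upwards, where 321 unigenes lay, 38.6% were higher and 35.2% lower in G.

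The unigenes 2-fold apart held a large part of the summed FPKM. The unigenes at least 2-fold higher in G held 31.4% of the summed FPKM in G, against 5.30% in YG, and their share in W was 16.5%. Those at least 2-fold lower held 9.47% in G, against 34.5% in YG, with 17.2% in W. Both groups were chosen by their G and YG values, so the direction of these shares follows from the choice. The 46001 unigenes less than 2-fold apart held 50.5% of the summed FPKM in G and 50.9% in YG. Of the 100 unigenes with the highest FPKM in G, 48 were also among the highest 100 in YG. The other 52 of the G list had a median FPKM of 293 in G, against 44.9 in YG, and 50 of them were at least 2-fold higher. The 52 found only in the YG list had a median of 60.5 in G, against 198 in YG, and 44 of them were at least 2-fold lower. The direction in both groups of 52 again follows from how they were chosen.

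The 2 steps shared the net change differently in the unigenes higher in G and in those lower in G. Of the 11902 unigenes higher in G, 5684 (47.8%) were late, 2299 (19.3%) early, 3272 (27.5%) shared and 647 (5.44%) reversing. Of the 11198 lower in G, 5072 (45.3%) were early, 2607 (23.3%) late, 2794 shared and 725 (6.47%) reversing. The W value thus lay near the lower of the 2 end values more often than near the higher one in both groups. Both groups were chosen by their G and YG values and not by W, so part of this pattern can follow from the choice. How large that part is was not tested. A 2-fold change at both steps was rare, seen in 535 higher and 316 lower unigenes, and 28.8% of each group reached their net 2-fold change without a 2-fold change at either step. W lay between G and YG for 84.8% of the higher and 83.2% of the lower unigenes.

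The split depended on the level of expression and on the scale. For the higher unigenes the late share was 55.2% between FPKM 1 and 2, 36.4% between 10 and 50 and 18.5% from 100 upwards, where 52.4% were shared and 24.2% early. Among the lower unigenes the early share stayed above the late share at every level, at 50.8% against 23.0% between FPKM 1 and 2, and 51.3% against 20.4% from 100 upwards. With a pseudocount of 0.1 in place of 1, the higher unigenes were 37.9% late and 26.8% early, and the lower unigenes 33.9% early and 33.2% late, so that the steps were almost equal among the lower unigenes.

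**Figure D2:**
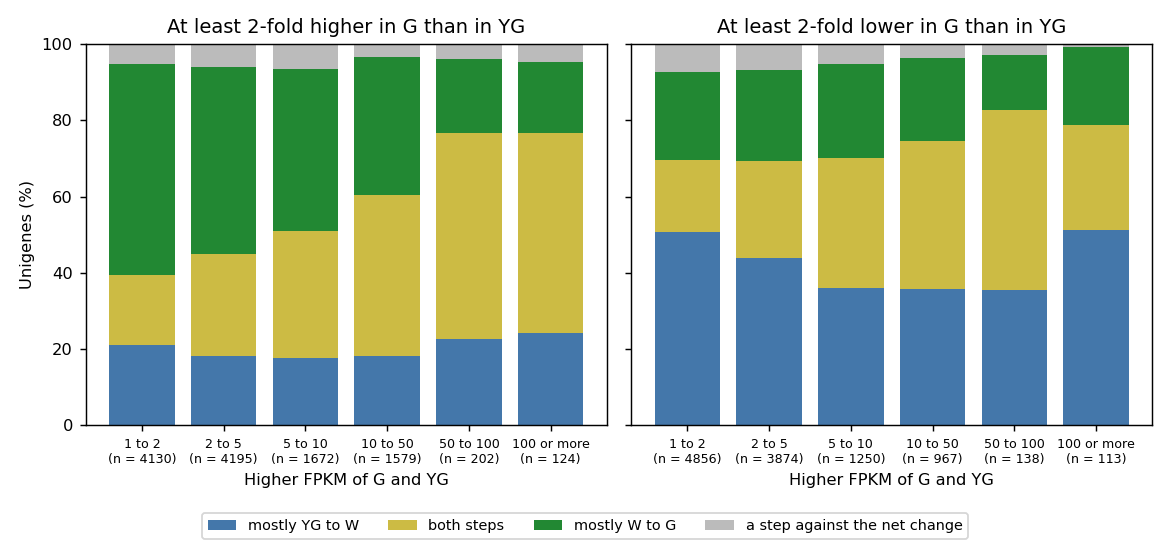
Share of unigenes (percent, vertical axis) whose net change between G and YG fell mostly in the YG to W step, in both steps, mostly in the W to G step, or included a step against the net change, by the higher FPKM of G and YG (horizontal axis). The left panel holds the unigenes at least 2-fold higher in G, whose late share is 55.2% in the lowest class and 18.5% in the highest, and the right panel those at least 2-fold lower, whose early share is 50.8% and 51.3% in the same classes.

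The largest net changes among unigenes above 0 in every stage belonged to unigenes without a gene name in the sources used here. Unigene27033 had an FPKM of 0.494 (YG), 93.6 (W) and 2263 (G), a net change of 10.57 of which 56.6% fell in the YG to W step. Unigene12560 had 0.331, 98.4 and 1440 in stage order, a net change of 10.08 with 61.7% in the first step. Both were therefore already far above their YG level in white leaves. In the other direction, unigene65933 had 1105 (YG), 72.2 (W) and 0.469 (G) (net change -9.56), and unigene105877 had 160 (YG), 12.1 (W) and 0.119 (G) (net change -7.17). The 2 steps were of similar size in both, with 41.0% and 50.5% of the change in the first step.

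Chlorophyll metabolism contained changes in both directions. Of the 70 unigenes listed for the pathway, 57 entered the comparison, and 11 (19.3%) were higher in G by 2-fold or more and 10 (17.5%) lower, beside 17.2% and 16.2% of all unigenes compared. The median net change of the 57 was 0.08, against 0.0041 over all. By any size, 32 were higher and 25 lower in G, beside 50.1% and 49.9% of all unigenes compared, but quantile normalization gave 28 and 29. Unigenes at least 2-fold higher in G were found for HEMA, HEMD, CHLH, CRD, CAO and CLH, and unigenes at least 2-fold lower for HEMB, PORA, CHLG and CLH.

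At the entry, the unigenes of glutamyl-tRNA reductase (HEMA), the first committed enzyme of tetrapyrrole synthesis, were higher in G. All 6 HEMA unigenes had a higher FPKM in G than in YG, although under quantile normalization unigene1366 was lower by 0.04 on the log2 scale. At least 2-fold higher were 4 of the 6, beside 17.2% of all unigenes compared. Unigene39518 had an FPKM of 1.83 (YG), 3.63 (W) and 10.3 (G), a net change of 2.00, and unigene24328 had 4.15, 6.41 and 12.7 in the same order, a net change of 1.42. In both, the W to G step held the larger part, 64.6% and 62.8%. Unigene89159 (2.38, 2.78 and 6.43) and unigene91770 (0.242, 0.149 and 2.28) were late, with next to no change before the white stage. The FPKM summed over the 6 unigenes was 44.9 in G, against 19.0 in YG.

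The next steps were mixed. For glutamate-1-semialdehyde aminotransferase (GSA), which completes 5-aminolevulinate, the main unigene90011 had an FPKM of 79.9 in G and 86.6 in YG. 5-Aminolevulinate dehydratase (HEMB) joins 2 of these molecules into a pyrrole, and its unigene71483 had 2.49 in G and 7.37 in YG, a net change of -1.26 divided evenly between the steps, while its most abundant unigene5974 had 78.3 in G and 41.6 in YG (0.90). The hydroxymethylbilane synthase (HEMC) unigene39110 had 40.9 in G and 79.2 in YG, a change of -0.94 just short of 2-fold that passed it under upper-quartile scaling (-1.04) and quantile normalization (-1.06). Uroporphyrinogen III synthase (HEMD), which closes the tetrapyrrole ring, went the other way. Its unigene2151 had an FPKM of 4.88 (YG), 16.8 (W) and 21.0 (G), a net change of 1.91, and it alone of the 11 chlorophyll unigenes at least 2-fold higher was early, with 83.8% of the change complete in white leaves. All 4 uroporphyrinogen III decarboxylase (HEME) unigenes compared were lower in G, each by less than 2-fold, with a median of -0.30. The unigenes of the last steps to protoporphyrin IX were weakly expressed. The only unigene of coproporphyrinogen III oxidase (HEMF), unigene76942, was listed at 0 in G and had 0.317 in YG, and protoporphyrinogen oxidase (HEMG) unigene1524 had 1.33 in G and 1.44 in YG.

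In the magnesium branch, the subunits of magnesium chelatase, which commits protoporphyrin IX to chlorophyll, differed in direction. The large catalytic subunit CHLH (unigene24228) had 88.4 in W between the G and YG values given above, a net change of 2.06 with 59.6% in the W to G step. The ATPase subunit CHLI (unigene8500) had an FPKM of 45.3 in G and 42.9 in YG, and the CHLD unigenes unigene55992 and unigene24743 were lower in G by 0.59 and 0.61 on the log2 scale. The list gives the CHLD unigenes the enzyme name uroporphyrinogen III synthase, so their identity is uncertain. Magnesium-protoporphyrin IX methyltransferase (CHLM, unigene1808) had 25.4 in G and 25.5 in YG.

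The oxidative cyclase (CRD), which forms the fifth ring of chlorophyll, was higher in G in both of its unigenes. Unigene12598 had an FPKM of 77.5 (YG), 127 (W) and 258 (G), a net change of 1.72, and unigene26832 had 5.58, 8.65 and 18.8, a net change of 1.59. Both changes were shared between the steps, with 59.3% and 65.3% in the second. The study designed 1 and the same primer pair for both unigenes in its quantitative PCR, shown here because 1 listed pair serves both.
CRD sense primer, unigene12598 and unigene26832: atgactggaaggctaagttgtggg
CRD antisense primer, unigene12598 and unigene26832: gcatgtcgaattctttggtgttga

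Protochlorophyllide oxidoreductase (PORA), which reduces protochlorophyllide to chlorophyllide in the light and whose A form is known from Arabidopsis as the form abundant in dark-grown seedlings, had the largest negative differences of the 3 pathways. Of its 8 unigenes, 7 entered the comparison and all 7 were lower in G, with a median of -2.07. At least 2-fold lower were 6 of the 7, beside 16.2% of all unigenes compared. The larger part of the difference came after the white stage in 5 of the 6. Unigene62053 had an FPKM of 0.822 in G and 29.0 in YG, with 13.2 in W, a net change of -4.04 with 73.3% in the W to G step, and unigene7972 had 1.87 in G and 36.2 in YG, with 19.2 in W, a change of -3.70 with 76.2% in that step. In unigene1225 the values were 2.38 in G and 16.5 in YG, in unigene57504 they were 2.47 and 13.6, and in unigene38214 they were 0.776 and 5.03, all of them late. Unigene131037, which the list also gives as PORB, was the exception. Its FPKM was 4.62 (YG), 0.989 (W) and 0.998 (G), so that the whole change lay in the first step. The remaining unigene8789 was level, at 21.7 in G and 21.9 in YG, and in G it alone held most of the PORA sum of 31.9, against 128 in YG. The primers of the 2 unigenes furthest below YG and of the level unigene are given because these had the largest and the smallest net changes of the PORA unigenes compared.
PORA unigene62053 sense primer: gaccttgctgtctttgtatgccttg
PORA unigene62053 antisense primer: gcctacctaggggacatgaggg
PORA unigene7972 sense primer: tggaagactgaaagatacaaggaaa
PORA unigene7972 antisense primer: ccagaataatcacccacatagatga
PORA unigene8789 sense primer: acccttggtgatgtacttttggaa
PORA unigene8789 antisense primer: tgaggagacaggaataacttttgct

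Chlorophyll synthase (CHLG), which attaches the phytol tail, had 1 unigene at least 2-fold lower, unigene4795, with an FPKM of 2.503 in G and 6.18 in YG, a late change of -1.04. The other CHLG unigene compared, unigene16139, was level. The list puts the name chlorophyll synthase beside CHLP, so the identity of its unigenes is uncertain too. The 2 CHLP unigenes were less than 2-fold apart, and the more abundant unigene26550 had 74.3 in G and 67.4 in YG.

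In the cycle between chlorophylls a and b, 8 unigenes entered the comparison. The 2 named CAO (25%) were at least 2-fold higher in G and none was lower by as much, beside 17.2% and 16.2% of all. CAO stands for chlorophyllide a oxygenase, which makes chlorophyll b, but the list puts the name geranylgeranyl-diphosphate reductase beside it and puts chlorophyllide a oxygenase beside NYC1, so the identity of these unigenes is uncertain. Unigene37586 had an FPKM of 1.91, 3.33 and 14.1 in stage order, a net change of 2.37, and unigene16722 had 0.659, 0.959 and 2.97, a net change of 1.26. Both were late, with 75.9% and 81.0% of the change in the W to G step. The NYC1 unigenes went the other way in time. Unigene37738 had an FPKM of 15.9 (YG), 34.7 (W) and 27.9 (G), so that its net change of 0.78 was smaller than its YG to W step of 1.08. The unigenes of the reductases NOL and HCAR were within 2-fold, and the HCAR unigene168719 had 5.37 in G and 3.12 in YG.

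Chlorophyllase (CLH), which removes the phytol tail from chlorophyll, held both the largest positive difference of the 3 pathways and a large negative one. Unigene131928 had an FPKM of 0.0277 (YG), 4.44 (W) and 56.0 (G), a net change of 5.79 that was shared between the steps at 41.5% and 58.5%. Unigene58581 had 2.31 (YG), 2.05 (W) and 0.0999 (G), a late change of -1.59, and unigene56286 had 4.902, 3.29 and 1.505 in stage order, a shared change of -1.24. Because of unigene131928 the summed FPKM of the 6 CLH unigenes was 83.3 in G, against 33.1 in YG, and without it the other 5 had 3 unigenes lower and 2 higher in G, of which unigene58748 turned lower with upper-quartile scaling and with quantile normalization. The unigenes of pheophytinase (PPH, unigene5416) and pheophorbide a oxygenase (PaO, unigene89999), which also act in chlorophyll breakdown, were higher in G by 0.87 and 0.74 on the log2 scale. The primer pair of unigene131928 is given because this chlorophyllase differs most between the 2 stages in the 3 pathways.
CLH unigene131928 sense primer: caagaacccatggaaaaagagcag
CLH unigene131928 antisense primer: gaagggggaaagttgagtgtgaaat

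**Figure D3:**
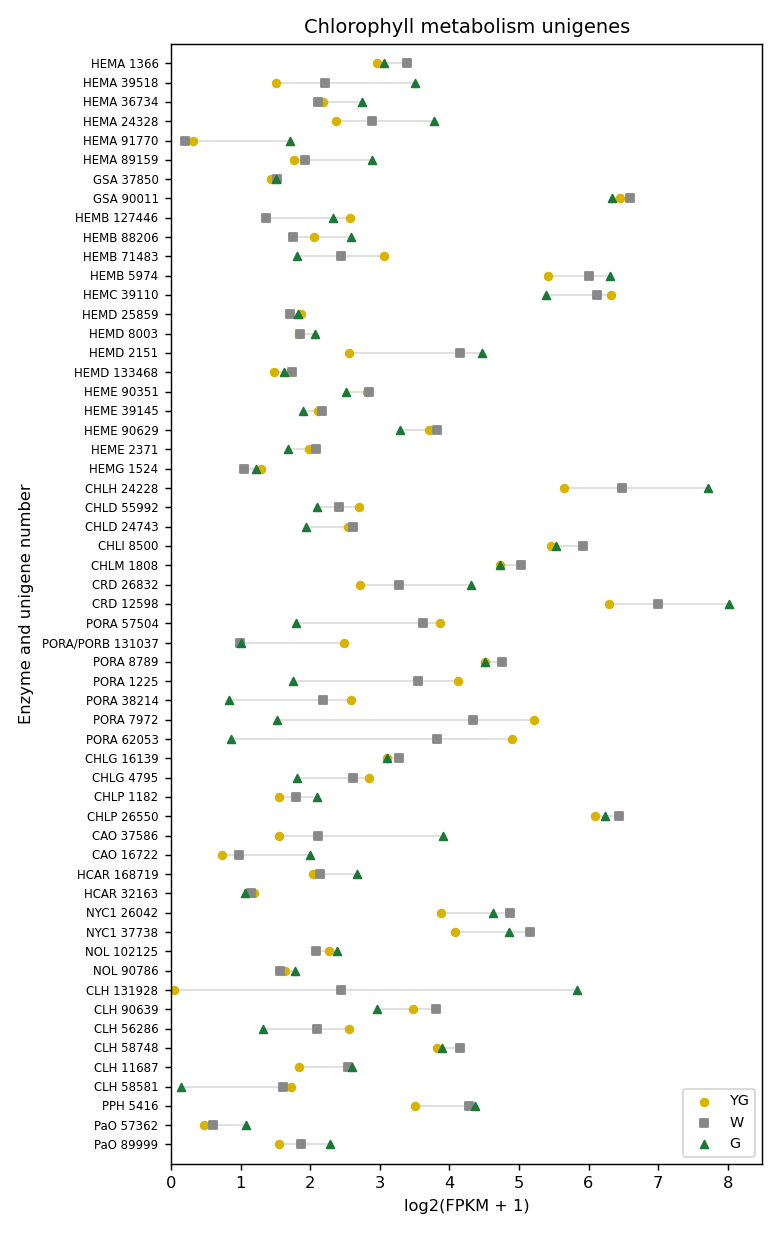
FPKM of the 57 chlorophyll metabolism unigenes compared, as log2(FPKM + 1) on the horizontal axis, with 1 row per unigene in pathway order and 1 point per stage (YG circle, W square, G triangle), each point being 1 pooled value. The G triangle lies far to the right of the YG circle for CLH unigene131928, CHLH, CRD and CAO, and far to the left for 6 of the 7 PORA unigenes.

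The carotenoid biosynthesis unigenes had a higher FPKM in G with few exceptions, mostly by less than 2-fold. Of the 49 listed unigenes, 36 entered the comparison, and 30 of these (83.3%) were higher in G by any size, beside 50.1% of all unigenes compared. Upper-quartile scaling gave 29 of 35 and quantile normalization 29 of 36. A difference of 2-fold or more was found for 6 higher unigenes (16.7%) and 1 lower unigene (2.78%), beside 17.2% and 16.2% of all. At these settings the share 2-fold higher was thus no greater than among all unigenes. It was greater with a minimum FPKM of 5 (6 of 19, beside 3577 of 14154 of all). The same held without unigenes listed at 0 (6 of 35, beside 6053 of 55067) and with a pseudocount of 0.1 (10 of 36, beside 17604 of 69101). It was not greater under upper-quartile scaling (5 of 35, beside 10872 of 68230) or quantile normalization (5 of 36, beside 11511 of 69101). The median net change was 0.41, made of a median of 0.20 in each step.

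The precursor steps from deoxyxylulose phosphate to geranylgeranyl diphosphate had 21 unigenes compared. Of these, 1 was higher in G by 2-fold or more and 1 lower (4.76% each), beside 17.2% and 16.2% of all unigenes compared. The higher one was the only unigene of ispF, unigene28019, whose enzyme forms the cyclic diphosphate of the plastid pathway. It had an FPKM of 8.67 (YG), 20.7 (W) and 36.1 (G), a net change of 1.94 with 60.1% in the first step. The 4 isopentenyl diphosphate isomerase (IPI) unigenes were higher in G by 0.40 to 0.95. The lower one, geranylgeranyl diphosphate synthase (GGPS) unigene171201, was listed at 0 in W and in G and had 1.06 in YG, and it dropped below 2-fold under quantile normalization (-0.97). The more abundant GGPS unigene41970 was lower in G by 0.74, with 34.8 in G and 58.7 in YG, while unigene10069 was higher by 0.75.

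From phytoene onwards, 14 of the 15 unigenes compared were higher in G and 5 were at least 2-fold higher (33.3%), with a median of 0.64, beside 50.1% and 17.2% of all unigenes compared. The 5 belonged to the steps up to lycopene, which both of its branches share, and to the branch through β-carotene and zeaxanthin. Phytoene synthase (PSY), which makes the first carotenoid, was represented by unigene38088, with 66.7 in G and 19.7 in YG, and 23.7 in W, so that 84.8% of its net change of 1.71 came in the second step. Phytoene desaturase (PDS) unigene17372 had an FPKM of 5.94 (YG), 9.703 (W) and 13.4 (G), a net change of 1.05 that was below 2-fold with upper-quartile scaling (0.95) and with quantile normalization (0.90). The ζ-carotene desaturase (ZDS) unigene25830 had 9.28, 15.3 and 30.5 in that order, a net change of 1.62 with 58.7% in the second step. Lycopene β-cyclase (LCY-b) unigene11724 had 7.76, 10.98 and 19.9 in stage order, a net change of 1.25 with 64.0% in the second step. Zeaxanthin epoxidase (ZEP1) unigene36818, with 8.64, 30.8 and 57.99, had the largest net change of the list, 2.61, with 65.8% in the first step. On the other branch of lycopene, the 3 lycopene ε-cyclase (LCY-e) unigenes stayed within 0.38 of YG, and the most abundant, unigene89247, had 11.1 in G and 9.57 in YG. Neither neoxanthin synthase (NXS) unigene entered the comparison, and unigene40018 was listed at 0 in YG and had 0.325 in G.

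On the log2 scale the weight of the 2 steps differed among the 6 carotenoid unigenes at least 2-fold higher, of which 5 were shared and 1 late. The difference in PSY unigene38088 lay mostly after the white stage, and those in ZDS unigene25830 and LCY-b unigene11724 lay in larger part after it. In PDS unigene17372, ispF unigene28019 and ZEP1 unigene36818 the larger part came before it, with 59.5%, 60.1% and 65.8% of the net change in the first step. This order depended on the scale. On untransformed FPKM, ispF unigene28019 and ZEP1 unigene36818 rose more from W to G than from YG to W.

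Theanine biosynthesis had the largest share of unigenes 2-fold apart of the 3 pathways. Of 36 listed unigenes, 26 entered the comparison, and 8 (30.8%) were higher in G by 2-fold or more and 5 (19.2%) lower, beside 17.2% and 16.2% of all. The median net change was 0.51. On the log2(FPKM + 1) scale, 11 of these 13 unigenes were shared between the steps and 2 were early, and none was late.

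Glutamine synthetase (GS) joins ammonia to glutamate, and theanine synthase (TS), a close relative, joins ethylamine to it. The lists name 18 unigenes for the 2 enzymes, 6 of them under both names, so that GS and TS could not be separated here. Of the 11 compared, 6 (54.5%) were higher in G by 2-fold or more and 2 (18.2%) lower, beside 17.2% and 16.2% of all. Among the 6, unigene25911, unigene39849 and unigene58305 kept a ratio to unigene37325 that varied by 1.15-fold or less over the stages. Whether the 6 are separate genes was not tested, so this share may count a gene more than once. The median net change of the 11 was 1.24. The most abundant of the 6, unigene58305, had an FPKM of 32.2 (YG), 106 (W) and 243 (G), a net change of 2.88. Unigene37325 had 8.95, 26.5 and 66.1 (2.75), and unigene39849 had 3.34, 10.8 and 27.9 (2.73). Unigene25911 had 10.6, 29.1 and 67.8 (2.57), unigene89631 had 4.93, 14.8 and 26.7 (2.23) and unigene90233 had 1.67, 3.096 and 5.33 (1.24). All 6 were higher at each step, with between 49.5% and 63.6% of the change in the first on the log2(FPKM + 1) scale. On untransformed FPKM all 6 rose more from W to G than from YG to W.

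Unigene6286, listed under both names, went the other way, with 40.6 (YG), 19.97 (W) and 7.55 (G), a net change of -2.28 that was also shared. Unigene91058 had 1.21 (YG), 0.0203 (W) and 0.0706 (G), an early change of -1.05 that was -0.998 under quantile normalization. Unigene13585, the most abundant of the group in YG, was higher in G by only 0.56, with 153 in G and 104 in YG. The FPKM summed over the 18 unigenes was 633 in G, against 227 in YG, with 339 in W. The primers of the 4 unigenes with the largest differences are shown because the study designed a separate pair for each.
GS/TS unigene58305 sense primer: tactcgagacacaaacagagccca
GS/TS unigene58305 antisense primer: gtatttcataatcccaacccaacct
GS/TS unigene37325 sense primer: cagaagagataagagagagggagaga
GS/TS unigene37325 antisense primer: gtagagtccgagaggttcaggttg
TS unigene39849 sense primer: tgtgatggacccaatggtgatag
TS unigene39849 antisense primer: aaaataaggtggttgactcggaaa
GS/TS unigene25911 sense primer: tactcctctgtcctccccttgatg
GS/TS unigene25911 antisense primer: attctggttgtggatggtttgttg

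Alanine decarboxylase (AIDA) supplies the ethylamine, and by the study's account its 5 unigenes encode arginine decarboxylases with similar domains. They split into 2 patterns. Unigene132868 had an FPKM of 55.3 (YG), 39.1 (W) and 22.5 (G) (net change -1.26), and unigene81677 had 28.3, 14.5 and 9.36 (-1.50), so that both were lower at each step. The other 3 were lowest in W. Unigene37160 had 18.5, 15.6 and 37.7 in stage order, a net change of 0.99 on the log2(FPKM + 1) scale although the ratio of the FPKM values themselves was 2.04, unigene89828 had 22.8, 17.4 and 31.3 (0.44), and unigene4834 had 12.0, 7.80 and 15.4 (0.33). The sum of the 5 was 116 in G, against 137 in YG, and 94.3 in W.

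Glutamate synthase (GOGAT), which makes glutamate from glutamine, had 10 of 13 unigenes compared. Of these, 2 (20%) were higher in G by 2-fold or more and 1 (10%) lower, close to the 17.2% and 16.2% of all unigenes compared. Unigene201 had an FPKM of 12.0 (YG), 29.5 (W) and 55.7 (G), a net change of 2.12, and it made up nearly all of the difference between the GOGAT sums of 117 in G and 71.3 in YG. Unigene163522 was listed at 0 in YG and had 0.878 in W and 1.38 in G. Unigene24016 had 14.7, 8.84 and 5.81 in stage order, a net change of -1.20. Unigene168460, the second most abundant in G, had 20.5 in G and 16.5 in YG.

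**Figure D4:**
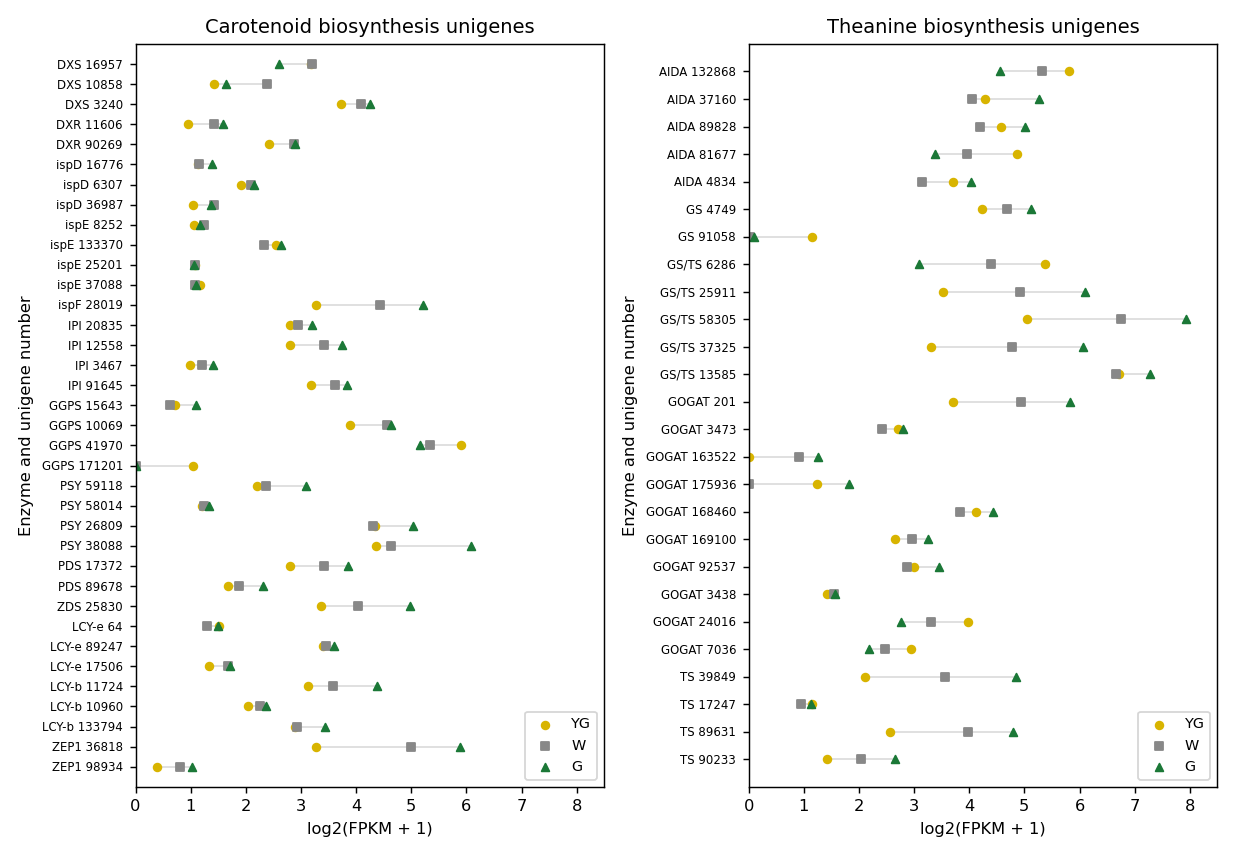
FPKM of the 36 carotenoid (left) and 26 theanine (right) biosynthesis unigenes compared, as log2(FPKM + 1) on the horizontal axis, with 1 row per unigene and 1 point per stage (YG circle, W square, G triangle), each point being 1 pooled value. Most carotenoid triangles lie slightly to the right of the circles (30 of 36), while the GS and TS unigenes show both wide gaps towards G (unigene58305, unigene37325, unigene39849) and a wide gap the other way (unigene6286).

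Across the 3 pathways together, 25 of the 119 unigenes compared (21.0%) were higher in G by 2-fold or more and 16 (13.4%) lower, beside 17.2% and 16.2% of all unigenes compared. The higher ones were 18 shared, 5 late and 2 early, and the lower ones 6 shared, 7 late and 3 early. None of the 41 was reversing, against 5.44% of the higher and 6.47% of the lower unigenes in all. Set beside the 47.8% late among all higher and 45.3% early among all lower unigenes, the pathway members lay at other shares, but they were also more strongly expressed, and the difference was not tested.

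**Figure D5:**
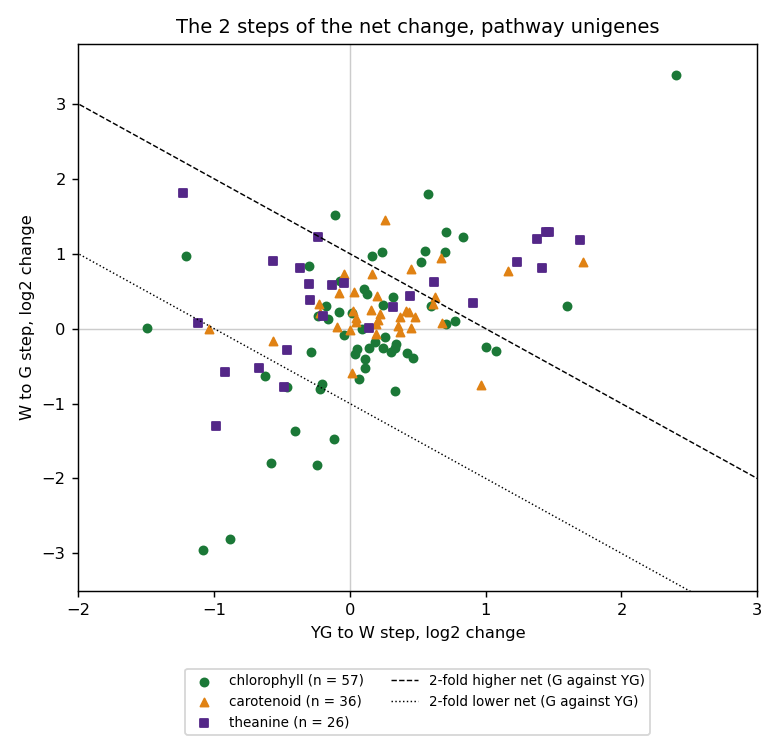
The YG to W step (horizontal axis) against the W to G step (vertical axis), both as log2 changes, for the 119 pathway unigenes compared, with lines where the 2 steps add up to a net 2-fold difference between G and YG. The 6 GS and TS unigenes at least 2-fold higher in G have both steps positive, CLH unigene131928 stands alone at the upper right (2.41 and 3.39), and the PORA unigenes reach furthest down (unigene62053 at -1.08 and -2.96).

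Several values lay close to the thresholds. The unigenes with their higher value between FPKM 0.9 and 1, which were left out, numbered 6580, and those between 1 and 1.1, which were kept, 5591. The 9767 unigenes that reached FPKM 1 only in W were left out too, so that the rule asks nothing of W. A change between 0.9 and 1 on the log2 scale was found for 2553 unigenes and one between 1 and 1.1 for 3710. Among the 46001 unigenes less than 2-fold apart between G and YG, 297 went up by 2-fold or more into W and down by as much after it, and 920 the other way, 174 of these above 0 in every stage.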

How the data were processed

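The authors sequenced 3 libraries per stage, assembled unigenes de novo with Trinity, and computed FPKM with Cufflinks (version 2.1.1 in the submitters' processing notes, while the methods name another version). The FPKM values the authors deposited hold 1 pooled value per unigene and stage. How libraries were pooled, the aligner and the treatment of reads shared by similar unigenes are not given in the sources used here. Fragments per value are unknown, so no interval was computed.

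Stages came from the labels. Changes were differences of log2(FPKM + 1) over unigenes whose FPKM reached 1 in G or YG. Single libraries were not analysed here, and no p-value was computed. The pathway lists were those of the study's supplementary tables, each unigene counted once. Named unigenes were those at least 2-fold apart in these lists, the most expressed unigene of each other enzyme, and the 2 largest differences in each direction among unnamed unigenes above 0 in every stage. Other list members were named after their values were seen. The members and lists were chosen with earlier results of these data known. The primer sequences came from the study's supplementary table. No unigene matched the RefSeq gene table (0 of 179951), so no position is given.

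Alternatives were a pseudocount of 0.1, no filter, a minimum FPKM of 5, leaving out unigenes listed at 0, upper-quartile scaling (75th percentile), quantile normalization and a step share of 75%. The split on linear FPKM was added after the data were seen. The counting was tested on simulated data. Python 3.11.15, pandas 2.3.3, numpy 2.4.6, scipy 1.17.1 and matplotlib 3.10.9 were used.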

Additional observations from a re-analysis of the deposited data

How the results depend on the processing

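The count of unigenes at least 2-fold apart between G and YG (23100, 51.5% of them higher in G) was 34811 (50.6% higher) with a pseudocount of 0.1, 6045 (59.2%) with a minimum FPKM of 5 and 10863 (55.7%) without unigenes listed at 0. Under upper-quartile scaling 47.7% were higher, and that scaling moved the median change of all unigenes to -0.10. The split of the higher unigenes (47.8% late, 19.3% early) and of the lower unigenes (45.3% early, 23.3% late) kept its order under every alternative. Dropping the filter on low values could not change this split, so it is no check of it. Every alternative still chose its unigenes by G and YG, so none checks what the choice itself contributes to the split. With a pseudocount of 0.1 the higher unigenes were 37.9% late and 26.8% early and the lower unigenes 33.9% early and 33.2% late. With a minimum FPKM of 5 the higher unigenes were 37.6% late and 18.4% early and 36.6% of the lower unigenes were early. Without unigenes listed at 0 the shares were 41.1%, 18.1% and 39.3%. Upper-quartile scaling gave 45.9% late and 21.7% early higher unigenes and 42.7% early and 24.5% late lower unigenes, and quantile normalization 40.9%, 24.9%, 39.3% and 26.7% in the same order. A step share of 75% gave 40.5%, 13.6%, 39.0% and 17.1%, and linear FPKM gave 61.5%, 11.7%, 56.0% and 14.7%.

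With a pseudocount of 0.1, 10 of 36 carotenoid unigenes were at least 2-fold higher in place of 6. Among all 69101 unigenes compared, this number went up as well, to 17604 in place of 11902. The 1 carotenoid unigene at least 2-fold lower became 0 with a minimum FPKM of 5, without unigenes listed at 0 and under quantile normalization. Without a filter on low values these counts could not differ. A 2-fold change on the log2(FPKM + 1) scale already needs an FPKM of at least 1 in G or YG. Of the named unigenes, 2 crossed the 2-fold threshold with upper-quartile scaling and 4 with quantile normalization. The cause of these differences was not tested, apart from the smaller number of unigenes left by the stricter filters. No paired analysis was possible because each stage holds 1 pooled value, and no replicate could be left out.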

Other observations

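Some unigenes given the same enzyme name kept almost the same ratio of FPKM in every stage, a pattern noticed after the values were seen. The CRD unigenes unigene26832 and unigene12598, which share a primer pair, had ratios of 0.0721 (YG), 0.0683 (W) and 0.0729 (G), so that the highest was 1.07 times the lowest while both unigenes were over 3 times higher in G than in YG (3.37 and 3.33 times). The NYC1 unigenes unigene26042 and unigene37738 had ratios of 0.859, 0.816 and 0.849. Among the GS and TS unigenes, the ratio to unigene37325 was 1.18, 1.098 and 1.02 for unigene25911, 0.373, 0.409 and 0.422 for unigene39849, and 3.597, 4.01 and 3.67 for unigene58305 in stage order. Other pairs were less steady. For unigene89631 the ratio to unigene37325 was 0.550 (YG), 0.559 (W) and 0.404 (G), a 1.38-fold range. The ratio of the PORA unigenes unigene62053 and unigene7972 was 0.801 (YG), 0.687 (W) and 0.440 (G), a 1.82-fold range. Whether reads shared between similar unigenes contribute to the steady ratios was not tested.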
